A study of Arabidopsis thaliana with 32 samples.

Results

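MCM2 to MCM7 and PCNA, the genes of the replicative helicase and of the sliding clamp, were followed across the tissues and crosses of Arabidopsis thaliana seeds. The 8 members were MCM2, MCM3, MCM4, MCM5, MCM6, MCM7, PCNA1 and PCNA2, taken by gene identifier out of 33602 genes counted, and all 8 were present in each count table. Allele reads were listed for 6 of them, and MCM3 and MCM4 were not listed there. Endosperm and embryo had been cut from seeds by laser capture microdissection and sequenced as poly-A RNA in 32 libraries, with 2 libraries in each of 16 groups. The standard crosses were Col x Col, C24 x C24, Col x C24 and C24 x Col, made with the accessions Col and C24. The CNS crosses used lines with swapped cytoplasm: C24(Col) x C24(Col), Col(C24) x Col(C24), a hybrid with a Col(C24) father, and Col(C24) x Col. The hybrid with a Col(C24) father was uneven by label, since its replicate 1 was Col x Col(C24) and its replicate 2 was C24(Col) x Col(C24). Chloroplast allele reads came from the parent named first in the standard hybrids, so the mother is written first. By the same reads and the nuclear allele reads, the line Col(C24) carries a C24 nucleus in cytoplasm from Col, and C24(Col) is the reverse. The labels give no seed age and no number of plants per library, nor do they say that both libraries of a group came from separate plants, so p-values measure the spread between these libraries, which may be technical.

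MCM2 to MCM7 are related ATPases that assemble into a ring around DNA. The origin recognition complex, CDC6 and CDT1 load the ring at replication origins in G1, and in S phase it unwinds DNA together with CDC45 and the GINS complex. PCNA is a ring without enzyme activity that the RFC clamp loader closes around the primed template, where it holds the DNA polymerases and many repair and chromatin factors. In plants, as in animals, many of these genes are known targets of E2F transcription factors, whose activity the retinoblastoma protein restrains. The embryo grows by cell division, whereas the endosperm first divides its nuclei without making walls and forms cells later.

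The members lie on 4 chromosomes in the RefSeq annotation of TAIR10.1, and the submitters' processing notes name TAIR10 as the build. MCM2 (AT1G44900) lies on chromosome 1 from 16970214 to 16974753 on the plus strand, and PCNA1 (AT1G07370) on the same chromosome and strand from 2263037 to 2264553. MCM4 (AT2G16440, 7126279 to 7130729), MCM5 (AT2G07690, 3522984 to 3527500) and PCNA2 (AT2G29570, 12649906 to 12651753) lie on the minus strand of chromosome 2. MCM3 (AT5G46280, 18769649 to 18773706) and MCM6 (AT5G44635, 18006212 to 18010667) lie on the minus strand of chromosome 5. MCM7, also known as PROLIFERA (AT4G02060), lies on chromosome 4 from 900636 to 905591 on the plus strand. It overlaps AT4G02050 and AT4G02055, and PCNA2 overlaps AT2G29560, so reads in those stretches may belong to either gene because the sources used here do not state whether counting used strand. The coding sequences of PCNA1 and PCNA2 were 85.3% identical, yet no stretch of 50 bases of their exons was shared.

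Promoters were read as the 300 bases before each annotated gene start. An E2F-type match was defined as TTTCCCGC, TTTGGCGC, TTTCGCGC or TTTGCCGC on either strand. Such a match was present in 5 of the 8 promoters, against 432 of 27443 promoters of all genes (1.57%). The 5 were those of MCM2 to MCM6, with TTTCCCGC in MCM2, MCM5 and MCM6 and TTTGGCGC in MCM3 and MCM4. A site II match, TGGGCC or TGGGCT on either strand, was present in 6 of the 8 (MCM2 to MCM6 and PCNA2), against 20.8% of all promoters. For MCM7 and PCNA1 neither set of letters was found in the window. The sequences around the matches are shown because 5 of the 6 helicase genes held an E2F-type match. Capitals mark the E2F-type match in the first 5 and the pair of site II matches in PCNA2, each sequence running 5′ to 3′ on the strand of its gene.
MCM2, chr1:16970154-16970213 (+): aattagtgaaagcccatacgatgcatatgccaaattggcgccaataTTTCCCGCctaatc
MCM3, chr5:18773843-18773902 (-): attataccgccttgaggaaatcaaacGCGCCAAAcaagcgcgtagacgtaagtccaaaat
MCM4, chr2:7130731-7130790 (-): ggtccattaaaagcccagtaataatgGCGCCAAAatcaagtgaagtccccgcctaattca
MCM5, chr2:3527501-3527560 (-): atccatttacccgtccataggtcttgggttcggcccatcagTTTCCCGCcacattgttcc
MCM6, chr5:18010680-18010739 (-): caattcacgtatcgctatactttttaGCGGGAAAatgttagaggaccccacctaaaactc
PCNA2, chr2:12651830-12651889 (-): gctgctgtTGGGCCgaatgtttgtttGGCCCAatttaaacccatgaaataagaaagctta
The E2F-type match began 14 bases before the gene start in MCM2, 19 in MCM5, 35 in MCM4, 46 in MCM6 and 170 in MCM3. A match is a description of letters and not a bound site.

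Depth was 8640820 to 36246480 counts in endosperm libraries and 14597401 to 54288320 in embryo libraries. Lines that name no gene held 6.29% to 18.2% of counts in endosperm and 2.64% to 7.45% in embryo. Each member had between 145 and 10841 counts in a library. Levels are given as CPM, the count of a gene scaled to the TMM-adjusted size of its library. Summed markers were highest in the labelled tissue, while some defining genes were near 0 or not higher there. The 12 embryo markers summed to 196 to 424 CPM in endosperm, against 801 to 1188 CPM in embryo. Of these, LEC1, a seed maturation regulator, was at 142 to 357 CPM in endosperm, against 104 to 286 CPM in embryo. CUC1 also averaged higher in endosperm (17.6 CPM, against 6.44 CPM in embryo), while PLT1, PLT2 and STM each had no read in 7 of 16 endosperm libraries. The 9 endosperm markers summed to 505 to 867 CPM in endosperm and 28.9 to 87.7 CPM in embryo. MINI3 had no read in any of the 16 endosperm libraries, and AGL62 reached at most 1.38 CPM and IKU2 at most 0.465 CPM there. The 11 seed coat markers summed to 103 to 496 CPM in endosperm and 20.9 to 53.9 CPM in embryo.

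All 8 members were lower in endosperm than in embryo, by 1.64-fold to 3.71-fold, in the standard and in the CNS crosses alike. MCM6 was furthest below its embryo level, MCM7 and both clamp genes came next, and MCM2 and MCM4 were nearest to it. All 8 passed the test in the standard crosses, where 39.6% of the 20235 genes tested were called lower in endosperm and 78.8% were called in either direction. All 8 passed it in the CNS crosses, where 33.9% of 21816 genes were called lower and 68.7% in either direction. The median log2 difference of the 8 was -1.30 in the standard crosses and -1.24 in the CNS crosses, beside 0.00 and 0.05 over all genes tested. In these bulk samples, fewer replicating cells and less RNA of these genes per cell cannot be told apart. Embryo and seed coat markers, depth and counts outside genes differed between the tissues as given above, and their part in the difference was not tested.

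**Figure D1:**
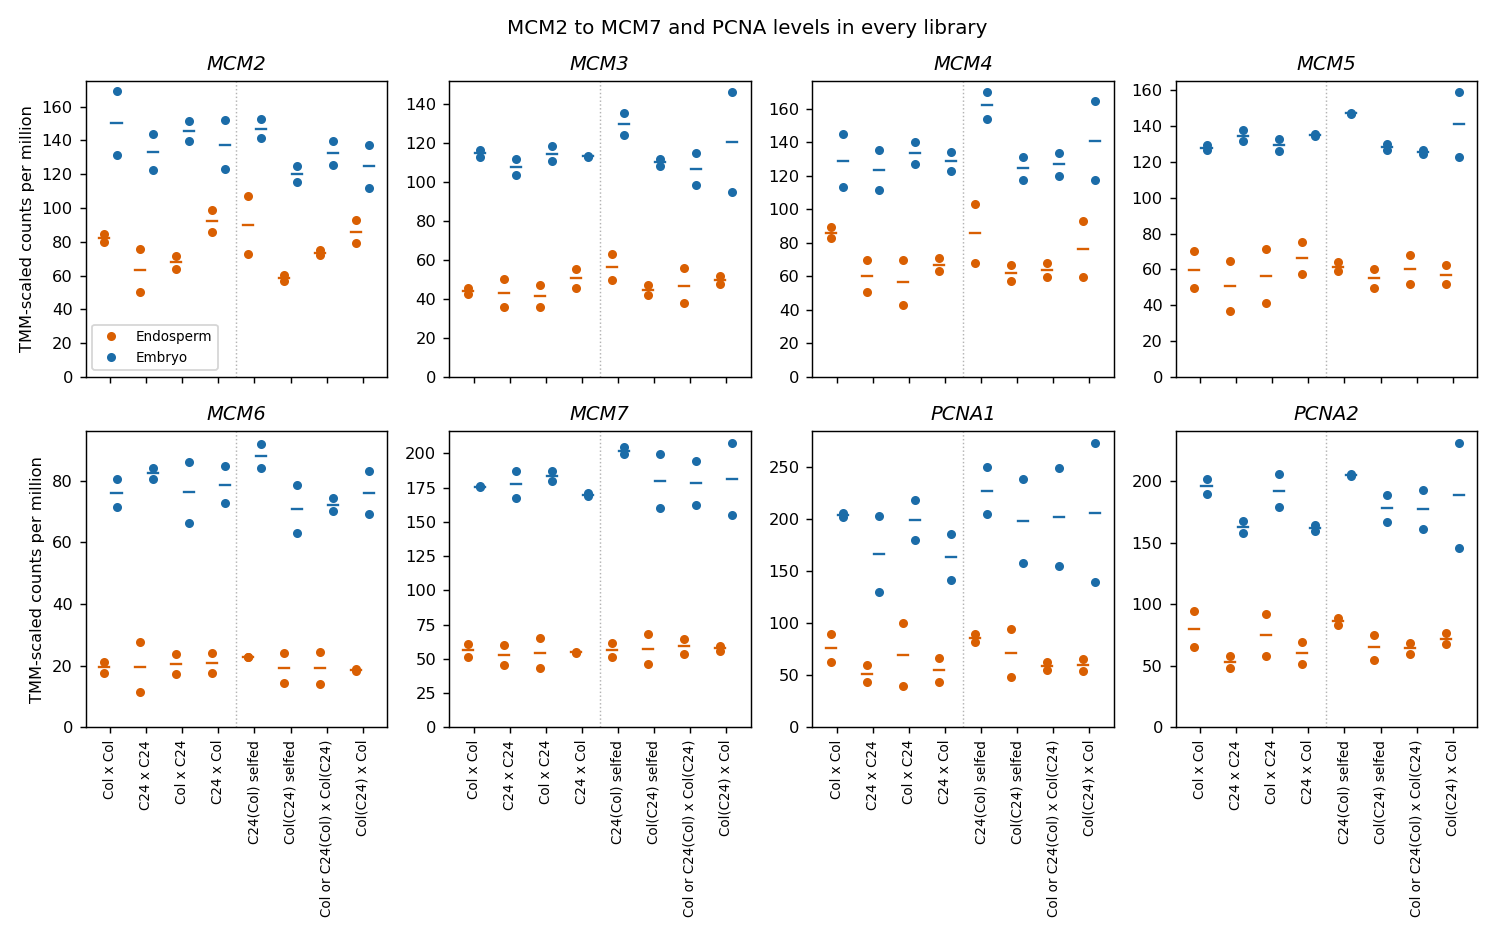
Levels of the 8 members in all 32 libraries, in TMM-scaled CPM on a linear axis from 0. Each dot is a library and each bar the mean of the 2 libraries of a cross; standard crosses stand left of the dotted line and CNS crosses right of it. The endosperm dots (orange) lie below the embryo dots (blue) in each panel, most widely for MCM6 and MCM7.

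Among the helicase subunits, MCM6, which binds CDT1 in yeast, had the largest difference. MCM6 was at 11.3 CPM in the lowest endosperm library, 20.1 CPM in the median and 27.6 CPM in the highest, against 63.2, 79.8 and 92.1 CPM in embryo (n = 16 libraries each). The groups did not overlap. Its log2 difference was -1.89 ± 0.17 (SE, adjusted p = 1.2e-07) in the standard crosses and -1.87 ± 0.14 (adjusted p = 4.3e-07) in the CNS crosses. Per cross, the endosperm mean was 0.236 of the embryo mean in C24 x C24, the lowest ratio, and 0.270 in Col x C24 and in Col(C24) x Col(C24), the highest.

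MCM7, which in yeast and mammals forms a stable subcomplex with MCM4 and MCM6, came next. MCM7 was at 43.6 CPM in the lowest endosperm library, 55.4 CPM in the median and 68.1 CPM in the highest, against 155, 178 and 208 CPM in embryo. Again no endosperm library reached an embryo library. The log2 difference was -1.62 ± 0.11 in the standard crosses (adjusted p = 6.5e-09) and -1.62 ± 0.12 in the CNS crosses (adjusted p = 3.5e-07). The ratio of endosperm to embryo means per cross ran from 0.278 in C24(Col) x C24(Col) to 0.331 in the hybrid with a Col(C24) father.

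MCM3, through which the ring docks on the origin recognition complex and CDC6 in yeast, was at 35.8 CPM in the lowest endosperm library, 47.4 CPM in the median and 62.9 CPM in the highest, against 94.8, 113 and 146 CPM in embryo. MCM5, which borders the gate of the ring with MCM2 in yeast, was at 36.8, 59.7 and 75.3 CPM in endosperm, against 123, 131 and 159 CPM in embryo. Neither gene had overlapping groups. MCM3 differed by -1.26 ± 0.10 on the log2 scale in the standard crosses (adjusted p = 3.9e-08) and by -1.17 ± 0.12 in the CNS crosses (adjusted p = 4.8e-06), and MCM5 by -1.11 ± 0.15 (adjusted p = 8.1e-06) and -1.14 ± 0.10 (adjusted p = 1.2e-06).

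MCM2, the subunit that binds histones H3 and H4 in yeast and mammals, had the smallest difference. It was at 50.3 CPM in the lowest endosperm library, 75.6 CPM in the median and 107 CPM in the highest, against 112, 139 and 169 CPM in embryo. MCM4, a substrate of the DDK kinase in yeast, was at 43.1, 68.0 and 103 CPM in endosperm, against 111, 132 and 170 CPM in embryo. For both genes the highest endosperm library was replicate 2 of C24(Col) x C24(Col), and it lay just under the lowest embryo library. The log2 differences were -0.84 ± 0.11 (adjusted p = 8.6e-06) and -0.71 ± 0.10 (adjusted p = 5.6e-05) for MCM2 in the standard and the CNS crosses, and -0.88 ± 0.12 (adjusted p = 1.2e-05) and -0.88 ± 0.13 (adjusted p = 8.2e-05) for MCM4. Over all 32 libraries the tissues were apart for 8 of 8 members with endosperm lower, beside 16.5% of 22254 genes.

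PCNA1 and PCNA2, the clamp genes, were close to each other in both tissues. PCNA1 was at 39.4 CPM in the lowest endosperm library, 62.8 CPM in the median and 99.8 CPM in the highest, against 130, 202 and 273 CPM in embryo. PCNA2 was at 47.9, 68.1 and 94.5 CPM in endosperm, against 146, 184 and 231 CPM in embryo. The groups did not overlap for either gene. PCNA1 differed by -1.47 ± 0.19 on the log2 scale in the standard crosses (adjusted p = 7.8e-06) and by -1.54 ± 0.20 in the CNS crosses (adjusted p = 2.4e-05). PCNA2 differed by -1.35 ± 0.13 (adjusted p = 3.2e-07) and by -1.32 ± 0.12 (adjusted p = 1.4e-06). PCNA1 varied most between libraries of one cross: in Col x C24 endosperm it was at 39.4 CPM in replicate 1 and 99.8 CPM in replicate 2. It was higher in replicate 2 than in replicate 1 in 7 of 8 endosperm groups and in 7 of 8 embryo groups, by a median log2 difference of 0.38 in endosperm and 0.49 in embryo. PCNA2 was higher in replicate 2 in 7 of 8 endosperm groups (median 0.31) and in 8 of 8 embryo groups (median 0.13). MCM4 and MCM7 were so in 8 of 8 embryo groups too, with medians of 0.16 and 0.11, and in 5 of 8 endosperm groups each.

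**Figure D2:**
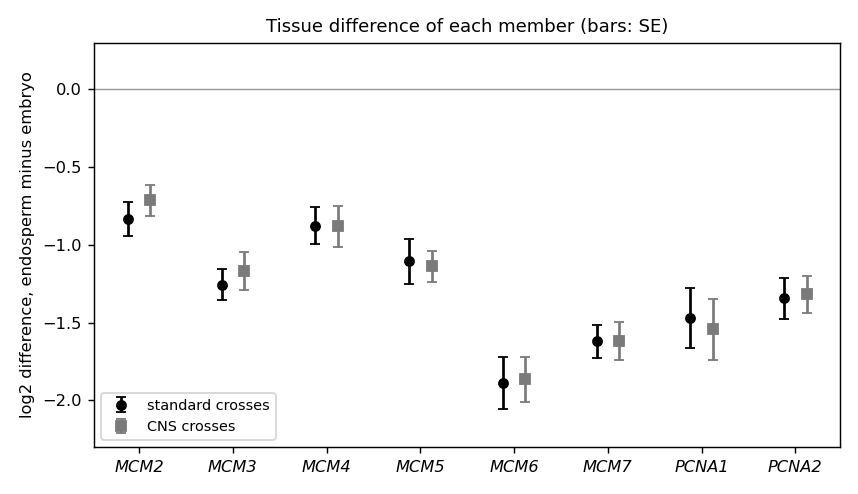
Difference between the tissues for each member, as log2 of endosperm over embryo from the edgeR fit, with bars of 1 SE. Black circles are the standard crosses and grey squares the CNS crosses (16 libraries each); values lie between -0.71 and -1.89, and both sets lie within about 1 SE of each other for each member.

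The tissue difference was compared between the sets as the CNS difference minus the standard difference. The sets also differed in depth, at 8640820 to 33880389 counts in standard libraries and 24547238 to 54288320 in CNS libraries. In Col x Col(C24), replicate 1 of a CNS hybrid, the mother was unswapped Col. An effect of cytoplasm therefore cannot be told apart from a difference between the sets. No member was called, and no gene of 22254 was called by edgeR (0%), while 1433 genes had an unadjusted p under 0.05 and DESeq2 called 73. The estimates of the members ran from -0.06 for PCNA1 to 0.12 for MCM2 on the log2 scale, with standard errors up to 0.28.

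Levels of different genes were compared per kilobase of exon, as RPKM. In endosperm the order was PCNA2 at 58.6 ± 12.2, PCNA1 at 58.3 ± 17.2, MCM4 at 24.3 ± 5.5, MCM2 at 24.1 ± 4.7, MCM5 at 21.7 ± 4.1, MCM7 at 21.1 ± 2.7, MCM3 at 15.5 ± 2.4 and MCM6 at 6.88 ± 1.56 RPKM (SD, n = 16 libraries). Of neighbours in that order, MCM3 and MCM6 did not overlap in range, PCNA1 and MCM4 overlapped only at the edges, and the other neighbours overlapped. In embryo the order was PCNA1 at 173 ± 38, PCNA2 at 154 ± 20, MCM7 at 68.3 ± 6.3, MCM5 at 49.6 ± 3.7, MCM4 at 46.6 ± 6.2, MCM2 at 42.8 ± 4.9, MCM3 at 37.8 ± 4.2 and MCM6 at 26.6 ± 2.8 RPKM. There PCNA2 and MCM7 did not overlap, MCM7 with MCM5 and MCM3 with MCM6 overlapped only at the edges, and the other neighbours overlapped. MCM7 stood above the other helicase subunits in embryo but below MCM4, MCM2 and MCM5 in endosperm, and MCM6 was last in both.

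The make-up of the helicase transcripts was therefore examined as the share of each subunit in the summed RPKM of MCM2 to MCM7 in a library. This comparison was chosen after the levels had been seen, and it rests on the same libraries. Shares in a library add up to the whole, so lower shares of some subunits entail higher shares of others. The tests of shares and of evenness restate the ranking of the fold differences above and are no separate support. Exact permutation tests exchanged tissues within each cross (1296 arrangements, two-sided, smallest possible p = 0.00154) and were adjusted over 18 tests. The exact permutation tests were also run with tissues exchanged only within same-numbered pairs of a cross (256 arrangements, smallest possible p = 0.00781). That pairing was assumed and not shown, so a result that passed only within pairs rests on the assumption. MCM7 made up 18.6% ± 1.9 of the sum in endosperm and 24.8% ± 0.9 in embryo in the standard crosses, and 18.9% ± 2.8 in endosperm and 25.5% ± 1.4 in embryo in the CNS crosses (SD, n = 8 libraries each). MCM6 made up 6.16% ± 1.04 in endosperm and 9.99% ± 0.90 in embryo in the standard crosses, and 5.91% ± 1.00 in endosperm and 9.62% ± 0.85 in embryo in the CNS crosses. For MCM6 and MCM7 no endosperm library reached the embryo range within either set, and each of the 4 tests gave the smallest possible p (adjusted p = 0.00309, exact permutation, and 0.0128 within pairs).

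MCM2 and MCM4 held larger shares in endosperm, which is bound to the lower shares of MCM6 and MCM7. The share of MCM2 was 21.5% ± 2.1 in endosperm and 16.5% ± 1.8 in embryo in the standard crosses, and 20.7% ± 2.2 in endosperm and 15.0% ± 0.9 in embryo in the CNS crosses (adjusted p = 0.00309 in both, exact permutation). That of MCM4 was 21.1% ± 2.8 in endosperm and 16.7% ± 1.6 in embryo in the standard crosses (adjusted p = 0.00556, exact permutation), and 21.5% ± 2.6 in endosperm and 17.5% ± 0.8 in embryo in the CNS crosses (adjusted p = 0.00309, exact permutation). Within pairs the adjusted p of MCM2 and MCM4 was 0.0128 in both sets. The ranges of MCM2 and MCM4 overlapped between tissues, except MCM2 in the CNS crosses. MCM3 and MCM5 did not pass: MCM3 made up 13.3% in endosperm and 13.8% in embryo in the standard crosses (adjusted p = 0.285, exact permutation), and MCM5 made up 19.3% in endosperm and 18.2% in embryo (adjusted p = 0.321, exact permutation). In the CNS crosses MCM3 had adjusted p = 0.863 and MCM5 adjusted p = 0.587 by the same exact permutation test. Of the summed PCNA transcripts, PCNA1 made up 49.0% ± 3.5 in endosperm and 51.6% ± 3.2 in embryo in the standard crosses (adjusted p = 0.244, exact permutation). In the CNS crosses it made up 49.7% ± 3.4 in endosperm and 53.4% ± 3.4 in embryo (adjusted p = 0.0903, exact permutation), and within pairs it passed (adjusted p = 0.0128). The levels of the 6 helicase genes were less even in endosperm: the SD of their log2 RPKM within a library averaged 0.71 in endosperm and 0.45 in embryo in the standard crosses, and 0.73 in endosperm and 0.47 in embryo in the CNS crosses (adjusted p = 0.00309 in both, exact permutation, and 0.0128 within pairs). The log2 ratio of summed PCNA to summed MCM RPKM averaged -0.02 in endosperm and 0.20 in embryo in the standard crosses (adjusted p = 0.143, exact permutation), and 0.06 in endosperm and 0.30 in embryo in the CNS crosses (adjusted p = 0.0631, exact permutation). Within pairs these ratios passed, with adjusted p = 0.0433 in the standard and 0.0352 in the CNS crosses.

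**Figure D3:**
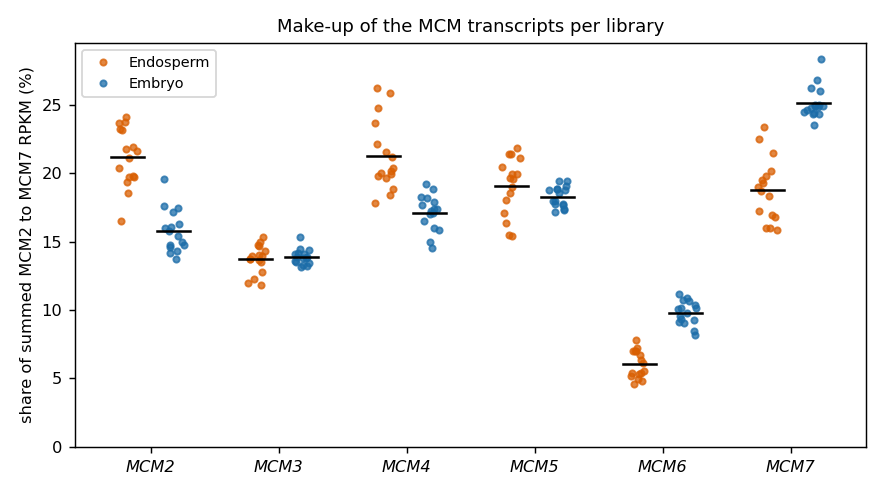
Share of each subunit in the summed RPKM of MCM2 to MCM7, in percent, with a dot per library (16 endosperm in orange, 16 embryo in blue) and a bar at the mean of each tissue. Endosperm dots of MCM6 and MCM7 lie under the embryo dots, those of MCM2 and MCM4 lie mostly over them, and those of MCM3 and MCM5 overlap.

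Other genes of replication were set beside the members by role. Their counts are read beside the shares over all genes, of which 39.1% were called higher and 39.6% lower in endosperm in the standard crosses, and 34.8% and 33.9% in the CNS crosses. Of 11 licensing genes tested in the standard crosses, 4 rose and 5 fell in endosperm, and in the CNS crosses 3 rose and 4 fell, counts near those shares. The loading factor CDC6 (AT2G29680) averaged 24.2 ± 9.5 CPM in endosperm, against 9.77 ± 1.79 CPM in embryo (SD, n = 16 libraries each), a log2 difference of 1.501 ± 0.159 in the standard crosses (adjusted p = 8.4e-07). ORC2, a subunit of the origin recognition complex, rose as well (1.29 ± 0.12, adjusted p = 1.8e-07). CDT1A, which delivers the ring together with CDC6, averaged 25.2 ± 6.1 CPM in endosperm, against 63.6 ± 10.6 CPM in embryo (-1.31 ± 0.20, adjusted p = 2.7e-05), and ORC1A fell too (-1.10 ± 0.21, adjusted p = 0.000225). The median log2 difference of the list was 0.00 in the standard crosses and 0.11 in the CNS crosses. ORC1A and ORC1B are copies whose likeness was not measured here, so how reads were divided between them is uncertain.

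Partners of the helicase were also near the shares over all genes, with 4 higher and 5 lower of 11 in the standard crosses and 2 higher and 4 lower in the CNS crosses. ETG1, which binds the MCM ring and takes part in its removal and in sister chromatid cohesion, fell most, to 23.9 ± 5.5 CPM in endosperm against 72.9 ± 9.3 CPM in embryo (-1.62 ± 0.11, adjusted p = 8.3e-09). The GINS subunit PSF2 fell by 1.12 ± 0.16 on the log2 scale (adjusted p = 1.4e-05), whereas AT3G55490, listed as a PSF3 gene, was higher by 0.77 ± 0.15 (adjusted p = 0.000311). TTN10, listed as the other PSF3 gene, was called higher in the standard crosses (1.35 ± 0.55, adjusted p = 0.0384). Over both sets it averaged 4.91 ± 3.34 CPM in endosperm, against 4.64 ± 3.44 CPM in embryo, so its mean levels were close. The log2 estimate averages over crosses, and C24 x C24 embryo had no TTN10 reads. That estimate ran from 0.04 to 1.57 when single libraries were left out, and by library totals its adjusted p was 0.0563. Of 11 genes of the DNA polymerases and primase, 7 fell and 2 rose in the standard crosses, and 5 fell and 2 rose in the CNS crosses. POLA2, a subunit of the polymerase that makes primers, fell (-1.33 ± 0.13, adjusted p = 3.0e-07), and so did AT5G63960, listed as the catalytic subunit of polymerase delta (-1.03 ± 0.10, adjusted p = 2.5e-07), and ICU2, that of polymerase alpha (-0.94 ± 0.18, adjusted p = 0.000268). TIL2, a second gene for the catalytic subunit of polymerase epsilon, averaged 61.7 ± 25.2 CPM in endosperm, against 1.28 ± 0.90 CPM in embryo (5.57 ± 0.22, adjusted p = 5.8e-11).

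Genes that work next to the clamp were mostly lower in endosperm. Of 16 genes of the clamp loader, single-strand binding and Okazaki fragment processing, 11 fell and 1 rose in the standard crosses, and 12 fell and 1 rose in the CNS crosses, with medians of -0.84 and -0.85. RFC3 (AT1G77470), a clamp loader subunit, averaged 26.8 ± 4.7 CPM in endosperm, against 83.1 ± 7.7 CPM in embryo (-1.57 ± 0.12 in the standard crosses, adjusted p = 2.0e-08). The single-strand binding gene RPA70B fell by 1.52 ± 0.21 on the log2 scale (adjusted p = 1.5e-05). LIG1, a DNA ligase gene, fell by 1.04 ± 0.08 in the CNS crosses (adjusted p = 4.1e-07). AT5G26680, listed as the flap nuclease FEN1, fell by 1.03 ± 0.09 (adjusted p = 1.5e-07). EMB2775 (AT5G27740), another clamp loader subunit, fell by 1.03 ± 0.10 (adjusted p = 5.1e-07). All 5 genes of deoxynucleotide supply and chromatin assembly fell in both sets, with a median of -1.29 in the standard crosses. RNR1, the large subunit of ribonucleotide reductase, averaged 61.3 ± 11.7 CPM in endosperm, against 192 ± 18 CPM in embryo (-1.56 ± 0.12, adjusted p = 3.6e-08). TSO2, a small subunit of that enzyme, fell by 1.42 ± 0.14, and FAS2, a subunit of the chromatin assembly factor CAF-1, by 1.29 ± 0.12 (adjusted p = 5.5e-07 and 3.3e-07).

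**Figure D4:**
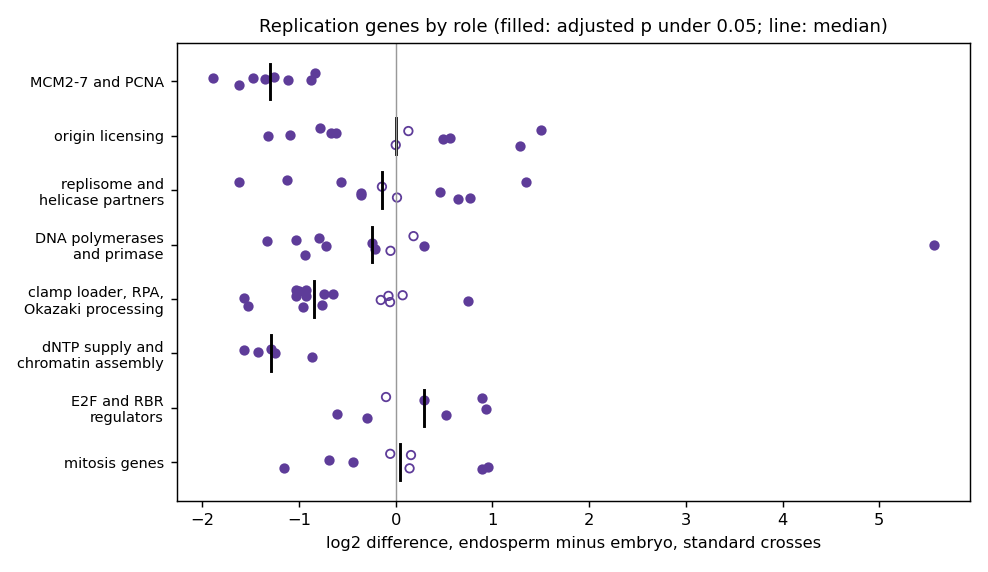
Log2 difference of endosperm over embryo in the standard crosses for the members and for 7 lists of genes, with a dot per gene, filled where adjusted p was under 0.05, and a line at the median of each list. The members and the genes of nucleotide supply and chromatin assembly lie left of 0, the clamp loader list lies mostly left of it, and the licensing, partner, regulator and mitosis lists lie on both sides.

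Regulators and mitosis genes changed in both directions, as did all genes by the shares given above. Of 7 genes of the E2F and retinoblastoma list, 4 rose and 2 fell in each set. DPA, the dimer partner of E2F factors, averaged 31.7 ± 4.3 CPM in endosperm, against 16.5 ± 2.1 CPM in embryo (0.94 ± 0.10 in the standard crosses, adjusted p = 9.1e-07). E2F1 (AT5G22220) rose by 0.89 ± 0.20 (adjusted p = 0.000999), DPB by 0.52 ± 0.10 (adjusted p = 0.000413), and E2F3 (AT2G36010) fell by 0.60 ± 0.13 (adjusted p = 0.000538). Of 8 mitosis genes, 2 rose and 3 fell in the standard crosses, and 3 rose and 3 fell in the CNS crosses. SYP111, the cytokinesis syntaxin KNOLLE, averaged 609 ± 159 CPM in endosperm, against 335 ± 68 CPM in embryo (0.96 ± 0.15, adjusted p = 5.4e-05). CDKB1;1, a cyclin-dependent kinase of the passage into mitosis, was higher by 0.90 ± 0.09 (adjusted p = 6.8e-07), while the kinase gene AUR2 (-1.15 ± 0.18, adjusted p = 5.0e-05) and the kinesin gene HIK (-0.69 ± 0.11, adjusted p = 4.0e-05) fell. Among all genes with an E2F-type promoter match, the members left out, 152 of 321 (47.4%) were lower in endosperm in the standard crosses, against 7686 of 19015 (40.4%) without a match. In the CNS crosses it was 142 of 342 (41.5%) against 7115 of 20296 (35.1%). These shares are descriptions and were not tested.

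Crosses were then compared within each tissue. The accession difference was asked first, as Col x Col minus C24 x C24 and, by nucleus, as C24(Col) x C24(Col) minus Col(C24) x Col(C24). No member was called in endosperm, where 7.96% of 21210 genes were called in the standard and 7.9% in the CNS comparison, nor in embryo, where 4.04% and 4.51% of 19942 genes were called. The largest estimate in standard endosperm was that of PCNA2, at 65.4 and 94.5 CPM in Col x Col and 58.1 and 47.9 CPM in C24 x C24 (0.61 ± 0.27, adjusted p = 0.209). Every Col x Col library lay above both C24 x C24 libraries for PCNA2, which was not called. With so few libraries such a separation can arise without an accession difference, and its share over all genes was not counted. In CNS endosperm the largest estimate was that of MCM2 (0.60 ± 0.24, adjusted p = 0.148). MCM2 was at 72.9 and 106.9 CPM in C24(Col) x C24(Col) and 56.86 and 60.04 CPM in Col(C24) x Col(C24). Without replicate 1 of C24(Col) x C24(Col) the estimate of MCM2 was 0.87 and its adjusted p was 0.0484. All 8 standard endosperm estimates were above 0 under TMM scaling, but by library totals those of MCM3, MCM5, MCM6 and MCM7 were below 0 (-0.24, -0.031, -0.28 and -0.18). The median of all genes was -0.31 by library totals and -0.03 under TMM. The embryo estimates ran from -0.17 to 0.24 in the standard comparison and from 0.11 to 0.32 in the CNS comparison.

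The direction of the cross and hybridity gave no call among the members either. For Col x C24 minus C24 x Col, 0.222% of genes were called in endosperm and 0.00501% in embryo, and member estimates ran from -0.47 to 0.31 in endosperm and from -0.04 to 0.30 in embryo. For the hybrid with a Col(C24) father minus Col(C24) x Col, 0.325% of genes were called in endosperm and none in embryo (0 by edgeR with 660 genes at an unadjusted p under 0.05, and 15 by DESeq2). Member estimates there ran from -0.27 to 0.06 in endosperm and from -0.13 to 0.13 in embryo. Hybrids minus selfed seeds gave member estimates from -0.22 to 0.15 in standard endosperm (0.717% of genes called) and from -0.39 to 0.14 in CNS endosperm (0.698%). In embryo these estimates were from -0.06 to 0.02 in the standard crosses (0.471% of genes called) and from -0.07 to -0.02 in the CNS crosses (0.732%). Standard errors of these member estimates were at most 0.39 in endosperm and 0.34 in embryo for the reciprocal comparisons, which limits what 2 libraries per group can show. With the replicate number as a block no member was called in any of these comparisons either, while the genes called were 2716 and 2849 for the selfed comparison in standard and CNS endosperm and 2428 and 2484 in embryo. Under that block they were 266 and 499 for the reciprocal comparison in endosperm. Differences of these contrasts between the sets gave no call among the members, with 0.00471% of genes called for the selfed contrast in endosperm and 0.0351% in embryo. For the reciprocal contrast no gene was called in either tissue by edgeR, with 293 genes in endosperm and 270 in embryo at an unadjusted p under 0.05, and DESeq2 called 1 and 2.

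A few genes of the lists differed between crosses. TTN10 (AT1G19080) had 145 and 154 reads in Col x Col embryo and none in C24 x C24 embryo (adjusted p = 7.6e-06). In CNS embryo it had 480 and 348 reads in C24(Col) x C24(Col) and 9 and 5 reads in Col(C24) x Col(C24) (adjusted p = 1.3e-05). TTN10 was also called higher in hybrid than in selfed embryo, by 4.34 ± 0.51 in the standard crosses (adjusted p = 0.00192) and 2.065 ± 0.274 in the CNS crosses (adjusted p = 0.00283). The selfed side is a mean of log levels that includes the groups with few or no reads. The copy of TTN10, AT3G55490, was at 9.29 and 9.39 CPM in Col x Col endosperm and 16.5 and 22.4 CPM in C24 x C24 endosperm (-1.05 ± 0.27, adjusted p = 0.0262). Reads may be divided between these copies in ways the deposited counts do not show. In selfed endosperm ORC2 was higher with the Col nucleus in the standard crosses (1.24 ± 0.25, adjusted p = 0.00729), and TIL2 in both sets (1.403 ± 0.372 and 1.36 ± 0.37, adjusted p = 0.0317 and 0.0365). POLD2, a subunit of polymerase delta, was higher with the Col nucleus in standard endosperm (0.75 ± 0.21, adjusted p = 0.0407) and DPB in CNS endosperm (0.86 ± 0.23, adjusted p = 0.0344). In CNS endosperm AT3G55490 was at 8.60 and 11.4 CPM in C24(Col) x C24(Col) and 17.9 and 20.2 CPM in Col(C24) x Col(C24) (-0.96 ± 0.26, adjusted p = 0.0371). In embryo CDKB1;1 was higher with the Col nucleus in both sets (0.54 ± 0.13 in the standard and 0.52 ± 0.13 in the CNS crosses, adjusted p = 0.0361 and 0.0348), and AT5G63960 in the CNS crosses (0.61 ± 0.13, adjusted p = 0.0158). By library totals the calls were lost for CDKB1;1 (adjusted p = 0.186 in the standard and 0.133 in the CNS crosses), POLD2 (0.179), DPB (0.0805) and TIL2 in the standard crosses (0.0531). Without a filter on low counts they were lost for CDKB1;1 (adjusted p = 0.0923 in the standard and 0.0844 in the CNS crosses), POLD2 (0.115) and AT3G55490 in the CNS crosses (0.0686). With a library left out, which leaves 1 in its group, the estimates kept their direction while adjusted p could pass the threshold. ORC2 then ran from 1.17 to 1.31 (adjusted p up to 0.096), AT3G55490 in the standard crosses from -1.26 to -0.79 (up to 0.227), POLD2 from 0.60 to 0.89 (up to 0.306) and DPB from 0.72 to 1.01 (up to 0.24). TIL2 ran from 1.00 to 1.72 in the standard crosses and from 0.90 to 1.72 in the CNS crosses (up to 0.25 and 0.332). TTN10 in selfed embryo was called in all 4 such fits of each set.

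Allele reads were available in the 16 hybrid libraries for MCM2, MCM5, MCM6, MCM7, PCNA1 and PCNA2. Endosperm receives 2 maternal genomes and 1 paternal genome, so equal use of each copy gives 66.7% maternal reads there and 50% in embryo. Over genes with at least 20 allele reads, the library median was 69.0% and 69.5% in Col x C24 endosperm. In C24 x Col endosperm it was 65.2% and 65.5%. Seed coat markers were present in the endosperm libraries as given above, and their part in the maternal shares was not tested. The maternal share of MCM2 was 65.9% ± 2.5 in standard endosperm and 51.2% ± 1.0 in standard embryo (SD, n = 4 hybrid libraries each). In CNS seeds it was 64.9% ± 5.1 in endosperm and 51.8% ± 4.6 in embryo. MCM7 had 64.5% ± 7.7 in standard endosperm and 51.5% ± 0.7 in standard embryo, and 66.3% ± 7.6 in CNS endosperm and 52.1% ± 1.7 in CNS embryo. Mean shares of the other 4 members ran from 61.2% to 70.4% in endosperm and from 46.3% to 53.8% in embryo. No member was called for parent of origin beyond genome dosage in any of the 4 fits, in which 4.09% of genes were called in standard endosperm, 1.06% in standard embryo, 2.4% in CNS endosperm and 0.0613% in CNS embryo. Member estimates of maternal over paternal reads ran from -0.18 to 0.24 on the log2 scale in standard endosperm and from -0.31 to 0.40 in CNS endosperm, with standard errors up to 0.54.

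Scatter between libraries was larger than counting error for several members. In Col x C24 endosperm, MCM7 had 141 maternal of 214 reads in replicate 1 (65.9%, exact 95% interval 59.1% to 72.2%, Clopper-Pearson) and 349 of 653 in replicate 2 (53.4%, 49.5% to 57.3%). In C24 x Col endosperm it had 290 of 431 (67.3%) and 697 of 976 (71.4%). PCNA1 had 119 of 132 maternal reads in C24(Col) x Col(C24) endosperm (90.2%, 83.7% to 94.7%), while the genes around it had a median of 63.5%. In Col x Col(C24) endosperm, labelled as the other replicate of that group, PCNA1 had 119 of 172 (69.2%, 61.7% to 76.0%). PCNA2 had 132 of 288 maternal reads (45.8%, 40.0% to 51.8%) in replicate 1 of Col(C24) x Col endosperm and 238 of 307 (77.5%, 72.4% to 82.1%) in replicate 2. These reads carry no molecular identifiers, so the intervals cover counting error only.

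Col against C24 alleles were tested in the same fits, and no member was called, beside 12.5% of genes in standard endosperm, 17.3% in standard embryo, 6.86% in CNS endosperm and 7.71% in CNS embryo. The median over all genes tested leaned to Col as well, at 0.13 in standard endosperm, 0.11 in standard embryo, 0.17 in CNS endosperm and 0.15 in CNS embryo. The tests were against 0 and not against these medians. The lowest adjusted p was that of PCNA1 in standard embryo (0.29 ± 0.12 towards Col, adjusted p = 0.0812), where Col made up 54.3% to 56.0% of its reads in the 4 libraries. MCM7 in standard endosperm leaned to C24 (-0.34 ± 0.15, adjusted p = 0.184), and without replicate 1 of Col x C24 it was called (-0.50 ± 0.14, adjusted p = 0.00438).

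**Figure D5:**
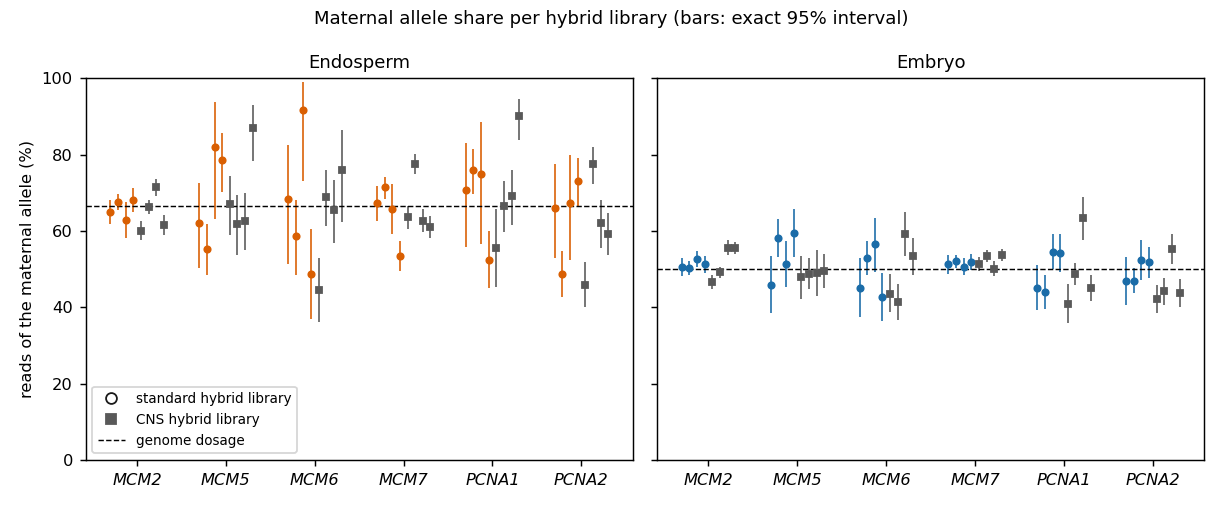
Share of maternal reads in percent for the 6 members with allele reads, with a point per hybrid library and its exact 95% interval, circles for the 4 standard and squares for the 4 CNS libraries of each tissue. The dashed line marks genome dosage, 66.7% in endosperm (left) and 50% in embryo (right); embryo points lie closer to the line than endosperm points, which rest on fewer reads.

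Members varied together to different degrees over the 8 crosses of a tissue, as Pearson correlations of their group means on the log2 scale, given without a p because crosses share parents and library handling. PCNA1 and PCNA2 had the highest value in endosperm (0.90) and 0.95 in embryo, where MCM3 and MCM4 also had 0.95. MCM6 and MCM7 had -0.02 in endosperm and 0.58 in embryo. Over all 16 groups the genes most like the mean of the members were GH9B1, AT4G31290, PYL1, NEK2, ASL5, AT1G54840, STRS2, AT4G28410, ATML1 and AT2G42660, with correlations of 0.992 to 0.995. These 16 points fall into the tissues, and each of the 10 genes was lower in endosperm: GH9B1, an endoglucanase gene, averaged 15.0 ± 6.2 CPM in endosperm, against 237 ± 39 CPM in embryo, and NEK2, a NIMA-related kinase gene, 8.78 ± 2.04 CPM in endosperm and 118 ± 13 CPM in embryo.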

How the data were processed

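Endosperm and embryo RNA was measured in 32 libraries, grouped by the labels. The authors deposited whole-number counts per gene for each library, and counts of Col and C24 allele reads for the 16 hybrid libraries. Trimmomatic, STAR, HTSeq, edgeR and TAIR10 are named per the submitters' processing notes, without versions. The sources used here do not state whether counting used strand. Each count table ends with 5 summary lines that name no gene and were left out. They held 6.29% to 18.2% of counts in endosperm and 2.64% to 7.45% in embryo. Depth was then 8640820 to 54288320 counts per library, and 1421299 to 6192604 nuclear allele reads per hybrid library. Of 33602 genes, 32835 matched RefSeq TAIR10.1.

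The members and the gene lists were chosen with earlier results of these data known. Genes were kept by filterByExpr (minimum count 10), scaled by TMM and tested with edgeR 4.0.16 (quasi-likelihood, R 4.3.3). The SE of a log2 difference was derived from its test, as its absolute value over the square root of the F statistic. P-values were adjusted by Benjamini and Hochberg over all genes tested, and a gene was called at an adjusted p under 0.05. The tissue comparison averaged over the 4 crosses of a set, and crosses were compared within a tissue. RPKM is TMM-scaled CPM per kilobase of exon. Apart from the members, the text names the list genes with the largest changes among those called, up to 4 per list in the tissue comparison and 2 in others, and the 10 genes most correlated with the mean of the members over group means of log2(CPM + 0.5). Same-numbered endosperm and embryo libraries of a cross deviated together (correlations 0.118 to 0.359 in the standard and 0.128 to 0.257 in the CNS crosses), and pairs were assumed. These correlations cannot show pairing, because same-numbered libraries of different crosses correlated too (0.135 to 0.507 in standard embryo). Endosperm was not set against embryo of another cross. Allele reads were fitted with a block per library and terms for parent of origin and for the Col allele, with an offset for 2 maternal genomes to 1 paternal genome in endosperm and at least 10 reads. Share tests, their version within pairs, and leaving out libraries from them, were chosen after the levels had been seen. Alternatives were DESeq2 1.42.0, library totals, no filter, a replicate block, at least 20 allele reads, and leaving out each library. Simulated data were used only for some fits: tissue, tissue by set, the selfed standard comparison and parent of origin in the standard set. The simulated gene counts had the same spread for every gene, which real counts do not. The other steps were not simulated, and no result here rests on the simulation.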

Additional observations from a re-analysis of the deposited data

How the results depend on the processing

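The lower level in endosperm was called for all 8 members in both sets under DESeq2, library totals, no filter, the replicate block and each left-out library, and the block changed no call of a member. Within a tissue, deviations of same-numbered libraries of different crosses correlated at 0.135 to 0.507 in standard embryo, 0.192 to 0.551 in CNS embryo, 0.184 to 0.300 in CNS endosperm and -0.092 to 0.300 in standard endosperm. The labels do not say what a number shares, so the unblocked fit stands beside the blocked one. Having 2 libraries per group limits every comparison of crosses, whose counts of called genes moved with the method. The cause was not tested.

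With DESeq2 the genes called were 2660 in standard and 2857 in CNS endosperm for the selfed comparison, 1464 and 1701 in embryo, 334 and 606 for the reciprocal comparison in endosperm and 15 in CNS embryo. For hybrids against selfed seeds they were 366 and 400 in endosperm and 267 in CNS embryo. For the differences between sets they were 73 (tissue), 18 and 34 (selfed, endosperm and embryo) and 1 and 2 (reciprocal). With the replicate block the same counts were 2716, 2849, 2428, 2484, 266, 499 and 13, with 2 for the reciprocal comparison in standard embryo. For hybrids under the block they were 331, 245 and 289, and for the differences between sets 1 (tissue), 4 and 40 (selfed) and 3 (reciprocal, embryo). Without a filter the counts were 2786 and 3051 (selfed endosperm), 675 and 1144 (reciprocal endosperm), 4 (reciprocal, CNS embryo), 694 and 737 (hybrids, endosperm), 3 (tissue by set), 206 and 15 (selfed by set, endosperm and embryo) and 51 and 1 (reciprocal by set). By library totals they were 0 for the reciprocal comparison in standard embryo and 3 for selfed by set in embryo. Library totals also turned the selfed endosperm estimates of MCM3 (-0.24), MCM5 (-0.031), MCM6 (-0.28) and MCM7 (-0.18) in the standard crosses and of MCM5 (-0.026) in the CNS crosses, and changed the split of higher to lower calls there to 781 and 1286 (1048 and 641 under TMM) and to 698 and 1016 (899 and 777 under TMM).

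With each library left out in turn, counts ran from 647 to 973 and 734 to 2322 for selfed endosperm, 425 to 527 and 507 to 711 for selfed embryo, 3 to 19 and 6 to 253 for reciprocal endosperm, and 0 to 1 for reciprocal standard embryo. They ran from 73 to 148 and 114 to 266 for hybrids in endosperm, 57 to 74 in standard embryo, 0 to 33 for tissue by set, and 1 to 41 and 3 to 7 for selfed by set in endosperm and embryo. Parent-of-origin calls ran from 130 to 1139 and 113 to 165 in endosperm and 38 to 84 and 1 to 525 in embryo, and allele calls from 244 to 2254 and 195 to 429 in endosperm and 1040 to 1369 and 152 to 2142 in embryo. Members called ran from 0 to 1 for CNS selfed endosperm (MCM2) and standard endosperm alleles (MCM7). Selfed endosperm estimates crossed 0 for MCM3 (-0.17 to 0.29), MCM5 (-0.084 to 0.70), MCM6 (-0.48 to 0.78) and MCM7 (-0.068 to 0.30) in the standard crosses, and for MCM6 (-0.090 to 0.65), MCM7 (-0.29 to 0.26) and PCNA1 (-0.16 to 0.82) in the CNS crosses. In CNS crosses the endosperm minus embryo difference ran from -0.10 to 0.38 for the MCM3 share, -4.66 to -3.05 for the PCNA1 share and -0.29 to -0.20 for log2 PCNA over MCM. With tissues exchanged within same-numbered pairs (replicate block), the PCNA1 share in the CNS crosses (-3.65) and log2 PCNA over MCM in the standard (-0.23) and CNS crosses (-0.24) passed. These passes rest on the assumed pairing.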
